A study of Mus musculus with 4 samples.

Results

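Cd248, Notch3, Cspg4, S100a4 and Prrx1 are genes by which pericytes and other mesenchymal cells are recognised. They were taken by name from a table of ribosome footprints in mouse embryonic fibroblasts, 5 genes of 4878, because earlier results of the same table had singled them out. The knockdown values below therefore chose the genes, and they are given as a description without a test. Footprints are the mRNA pieces that ribosomes shield from RNase, and the table counts them separately in the coding sequence and in the 5' untranslated region (5' UTR or leader), the stretch before the main start codon.

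The fibroblasts, at passages 5 to 8, were transfected with a negative control siRNA or with the siRNA labelled Si-eIF1A (X+18), and each group held 2 libraries. eIF1A is an initiation factor that helps the small ribosomal subunit scan the leader and choose a start codon. No other treatment or allele is named in the labels, and both groups received the lipid reagent. Whether replicates were separate cultures is not given, so p-values measure how these libraries vary, and that variation may be technical.

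Pericytes sit on the wall of small blood vessels, share many genes with fibroblasts and belong to the mural cells. Cd248 (endosialin) is a surface glycoprotein with a C-type lectin domain, found on pericytes and on stromal cells of embryos and tumours. Notch3 is the Notch receptor of mural cells: a ligand on a neighbouring cell triggers its cleavage, and the freed intracellular part acts with Rbpj in the nucleus. Cspg4 (NG2) is a transmembrane proteoglycan that carries chondroitin sulfate. S100a4, also called fibroblast-specific protein, is a small calcium-binding protein that binds non-muscle myosin II. Prrx1 is a homeobox transcription factor of limb and craniofacial mesenchyme.

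RefSeq places Cd248 on chromosome 19 at 5068078 to 5070640, Notch3 on chromosome 17 at 32120820 to 32166896, and Cspg4 on chromosome 9 at 56865104 to 56899870 (GRCm38.p6, the mm10 build). S100a4 lies on chromosome 3 at 90603770 to 90606045 and Prrx1 on chromosome 1 at 163245119 to 163315145. In the same annotation 2 long non-coding RNAs overlap Notch3 and 2 overlap Prrx1, and whether counting used the strand was not stated.

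RefSeq promoter windows, from 250 bases before the transcript start to 50 after it, were matched for 4 of the 5 genes. Of these, 1 piece of 30 bases is shown per gene, since the promoters of these identity genes differ in the motifs they hold. Capitals mark TATAAA (the TATA box) in S100a4, GGGCGG (the GC box) in Notch3 and, as its reverse complement, in Cspg4. In Prrx1 they mark an ATG soon after the transcript start. Each is written 5′ to 3′ on the strand of the gene.
S100a4, chr3:90603727-90603756, plus strand: ggcctggcagggTATAAAtaggtcagattg
Notch3, chr17:32166896-32166925, minus strand: gcccaggcctggGGGCGGggcagcccgaca
Cspg4, chr9:56865007-56865036, plus strand: ctggcgcctgccCCGCCCccggagttaagt
Prrx1, chr1:163313609-163313638, minus strand: gtaggagattgtgATGgagaaagggggtct

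TATAAA, searched on both strands of the 250 bases before the start, was found once in S100a4, with its first base at -31, and not in the other 3 genes. It occurred in 12.4% of 32851 promoters. GGGCGG, searched in the same way, had 4 matches in Notch3 and 2 in Cspg4, and 32.7% of promoters held it. An ATG on the sense strand of the first 50 transcript bases was found in Prrx1, with its first base at position 26, and in none of the other 3. Such an ATG occurred in 44.3% of all promoters. These are matches of letters, and the leader that was counted may belong to another transcript. The Prrx1 window starts inside the gene, which on its minus strand begins at 163315145, so it belongs to an inner transcript start.

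The libraries differed in depth and in how much of it fell in leaders. Summed over the listed genes, the controls had 617663 and 547916 reads for replicates 1 and 2, while the knockdown libraries had 458191 and 280649. Leaders took 11.6% and 13.7% of them in the controls but 19.95% and 32.4% in the knockdown libraries. Of the markers of the labelled cell type, Vim, the intermediate filament of mesenchyme, had 671 and 488 normalized coding reads in the controls, and the matrix protein Fn1 had 3032 and 4881. Other defining fibroblast genes, among them Col1a1, Pdgfra and Thy1, were not analysed here. Markers of other cell types were few, with none listed for leukocytes, skeletal muscle, adipocytes or erythroid cells. Eif1ax and Eif1a were not analysed here, so the knockdown was not checked in these libraries. A lower footprint level can stand for less mRNA, less translation or fewer cells of a type, and these cannot be told apart.

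In coding sequence, Cd248, S100a4, Notch3 and Cspg4 were lower in both knockdown libraries than in both controls, by 17.3, 7.94, 5.73 and 3.32 times in the group means, while Prrx1 overlapped. Over all 4619 genes tested, 40.1% lay below both controls in both knockdown libraries. By limma (Benjamini-Hochberg adjusted p under 0.05), 18.7% of them were called lower and 10.6% higher. These shares are the background for the 5 genes, which were chosen by this contrast and get no call here.

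Cd248, the surface glycoprotein, had 108 and 124 normalized coding reads in the controls (replicates 1 and 2), whereas the knockdown libraries had 10.2 and 3.19. These values stand for 151 and 143 reads against 10 and 2. Both knockdown libraries were far below the controls. The means were 116 ± 10.9 and 6.68 ± 4.93 (SD, n = 2), and the log2 change was -4.09 ± 0.44 (SE from limma), on the scale of log2(value + 1). Over the summed reads the control level was 15.5 times the knockdown level, with a 95% counting interval of 8.71 to 30.2. With 1 read taken off each value, since the table may have had 1 added, the ratio was 18.4 (9.87 to 38.8). Of the 4619 genes, 4 had a lower log2 change than Cd248. Its knockdown mean was under 10, so it reached the filter through the controls, and this rank is not independent of the filter.

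Its coding profile was closest to those of Scd2, a fatty acid desaturase, Col6a2, a collagen VI chain, and Emilin1, an elastic fibre glycoprotein. Likeness was the Euclidean distance between the 4 log2 values after each gene's own mean was removed, over genes with a mean of at least 50, and it was 0.52, 0.59 and 0.68 log2 units for these 3. In knockdown replicates 1 and 2, Scd2 had 80.3 and 33.5 normalized coding reads, Col6a2 had 31.5 and 20.8, and Emilin1 had 7.12 and 4.79. Replicate 2 was the lower one in each, as in Cd248, but the genes were picked for likeness over these libraries. The shared order is therefore no separate result. Col6a2 and Emilin1 reached the mean of 50 through the controls.

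Notch3, the mural Notch receptor, had 115 and 187 normalized coding reads in the controls and 22.4 and 30.3 in the knockdown libraries. Replicate 2 was the higher library in both groups, and the groups were apart. The means were 151 ± 50.4 and 26.4 ± 5.62 (SD, n = 2), a log2 change of -2.45 ± 0.34 (SE). The reads were 161, 216, 22 and 19 in the same order, and the summed ratio of control to knockdown was 5.80 (95% counting interval 4.19 to 8.21). The closest profiles were those of Col12a1, Tnc and Tenm3, at distances of 0.18, 0.23 and 0.26 log2 units. Col12a1 is a fibril-associated collagen and Tnc is the matrix glycoprotein tenascin C.

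Cspg4, the NG2 proteoglycan, had 222 and 361 normalized coding reads in the controls, whereas the knockdown libraries had 83.4 and 92.6. It had the most reads of the 5 genes, 310, 418, 82 and 58, and its groups did not overlap. The means were 292 ± 98.4 and 88.0 ± 6.49 (SD, n = 2), a log2 change of -1.68 ± 0.31 (SE), and the summed ratio of control to knockdown was 3.28 (95% counting interval 2.73 to 3.96). Of the 4619 genes, 6.65% had a lower log2 change, against 1.91% for Notch3 and 1.02% for S100a4. The nearest profiles, Inppl1, a lipid phosphatase, Pkd1, the polycystin-1 gene, and Kdm6a, a histone demethylase, were each at 0.16 log2 units.

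S100a4, the calcium-binding protein, had 150 and 135 normalized coding reads in the controls and 18.3 and 17.6 in the knockdown libraries. The replicates of each group lay close together, and the groups were apart. The means were 142 ± 10.6 and 17.9 ± 0.53 (SD, n = 2), a log2 change of -2.92 ± 0.31 (SE). The reads were 209, 156, 18 and 11, and the summed ratio of control to knockdown was 7.94 (95% counting interval 5.43 to 12.02). Its closest profiles were those of P4ha1, a collagen prolyl hydroxylase, Pfkl, a phosphofructokinase, and H1f0, a linker histone, at 0.30, 0.30 and 0.32 log2 units.

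Prrx1, the transcription factor, did not share this coding pattern. It had 65.9 and 63.1 normalized coding reads in the controls and 53.9 and 67.0 in the knockdown libraries, and the groups overlapped. The means were 64.5 ± 2.00 and 60.5 ± 9.29 (SD, n = 2), a log2 change of -0.10 ± 0.31 (SE), which became 0.07 with TMM scaling and 0.06 with quantile normalization. The summed ratio of control to knockdown was 1.10, with a 95% counting interval of 0.85 to 1.43. Its nearest profiles were those of Safb, Dek and Cpsf7, nuclear proteins that bind RNA or chromatin, at 0.09, 0.12 and 0.12 log2 units.

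**Figure D1:**
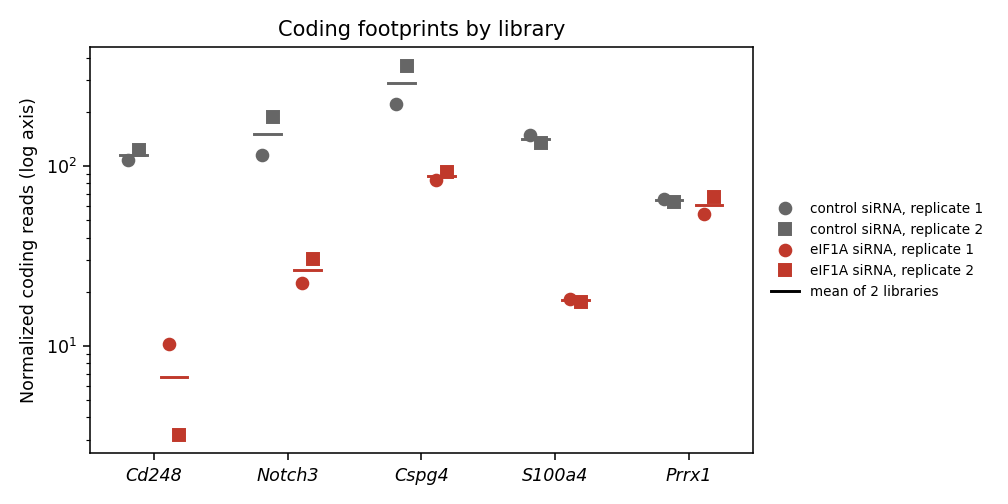
Normalized coding reads (log axis) of the 5 genes in each of the 4 libraries, with circles for replicate 1, squares for replicate 2 and lines for the means of 2 libraries (grey, control siRNA; red, eIF1A siRNA). Cd248, Notch3, Cspg4 and S100a4 lie lower in both knockdown libraries, and Prrx1 lies between 53.9 and 67.0 in all 4.

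In the leader the 5 genes separated in another way: Prrx1 and S100a4 were lower in both knockdown libraries, Cspg4 overlapped, and Cd248 and Notch3 stood at the table's lowest value. Over the 2101 genes tested for leader reads, the median log2 change was 1.09. By limma 44.0% of them were called higher and 2.81% lower, and 7.19% lay below both controls in both knockdown libraries. Only S100a4 and Prrx1 of the 5 genes reached the mean of 10 normalized leader reads that the test needed. S100a4 reached it through the controls, with a knockdown mean of 4.65.

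Prrx1 had 153 and 199 normalized leader reads in the controls and 35.6 and 57.5 in the knockdown libraries. The controls were both far above the knockdown libraries, and replicate 2 was the higher one in each group. The means were 176 ± 32.6 and 46.5 ± 15.5 (SD, n = 2), a log2 change of -1.92 ± 0.46 (SE). The reads were 213 and 230 against 35 and 36, and the summed ratio of control to knockdown was 3.93 (95% counting interval 3.06 to 5.13). Of the 2101 genes, 21 had a lower log2 change of leader reads.

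S100a4 had 26.5 and 38.9 normalized leader reads in the controls and 6.10 and 3.19 in the knockdown libraries. The groups did not overlap, but the knockdown values rest on 6 and 2 reads. The log2 change was -2.60 ± 0.59 (SE), and the summed ratio of control to knockdown was 6.46 (95% counting interval 3.13 to 15.5), or 8.41 (3.70 to 23.6) with 1 read less per value. The log2 changes of its leader and of its coding sequence, -2.60 and -2.92, differed by less than the SE of the former.

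Cspg4 had 7.17 and 9.51 normalized leader reads in the controls and 8.14 and 11.2 in the knockdown libraries. The groups overlapped, with 10, 11, 8 and 7 reads, and the summed ratio of control to knockdown was 0.88 (95% counting interval 0.43 to 1.84). At this depth a level from 1.84 times lower to 2.305 times higher in the knockdown libraries could not be told from no change. Cd248 and Notch3 had 1 leader read in each of the 4 libraries, the lowest value the table holds, which may stand for none, so no leader change can be given for either.

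**Figure D2:**
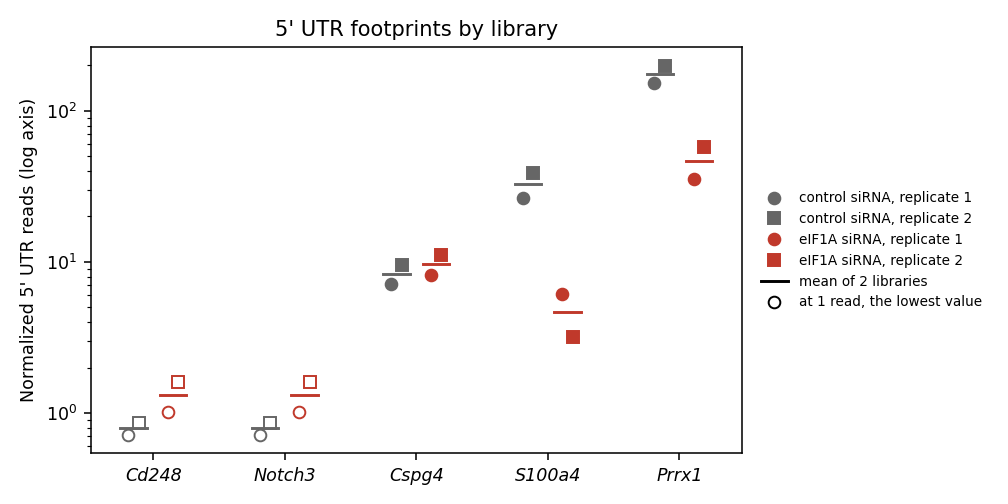
Normalized 5' UTR reads (log axis) of the 5 genes by library, with open symbols at 1 read, the lowest value in the table, and lines for the means of 2 libraries. Prrx1 lies at 153 and 199 in the controls and at 35.6 and 57.5 in the knockdown libraries, and the open symbols of Cd248 and Notch3 differ only by each library's scaling.

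Prrx1 had more footprints in its leader than in its coding sequence in both controls, and fewer in both knockdown libraries. In the controls 69.8% (95% Wilson interval 64.5 to 74.7) and 75.9% (70.8 to 80.4) of its reads were leader reads. In the knockdown libraries the share was 39.8% (30.2 to 50.2) and 46.2% (35.5 to 57.1). The shares of the groups did not overlap. The intervals cover counting error only, which replicates exceeded over all genes, so they are no test between the groups. Leader reads were 2.32 and 3.15 times the coding reads in the controls, and 0.66 and 0.86 times in the knockdown libraries. The log2 change of the ratio was -1.82 ± 0.80 (SE).

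Over the 1907 genes tested for it, the median log2 change was 1.23, upwards where that of Prrx1 was downwards, and by limma 19.4% were called higher and 0.0524% lower. In 1.52% of them both knockdown libraries lay below both controls. Of the 1907 genes, 3 had a lower log2 change of the ratio than Prrx1: Rabggtb at -2.55, the 1 gene called lower (limma adjusted p = 0.016), and Ccnd1 and Hist1h1d, both at -1.83. Leader reads exceeded coding reads in both controls in 181 genes, and in 3 of these the ratio was under 1 in both knockdown libraries. These were Rabggtb, Prrx1 and Plekhh3.

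S100a4 and Cspg4 had lower leader shares. For S100a4 they were 15.04% and 22.4% in the controls and 25% and 15.4% in the knockdown libraries, with intervals as wide as 4.33 to 42.2, and the groups overlapped. Its ratio had a log2 change of 0.32 ± 0.78 (SE), which became -0.80 with quantile normalization. For Cspg4 the shares were 3.13% and 2.56% in the controls and 8.89% and 10.8% after knockdown, higher in both. Its leader reads were level while its coding reads were lower, as given above, and the share over all listed genes was also higher in both knockdown libraries.

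**Figure D3:**
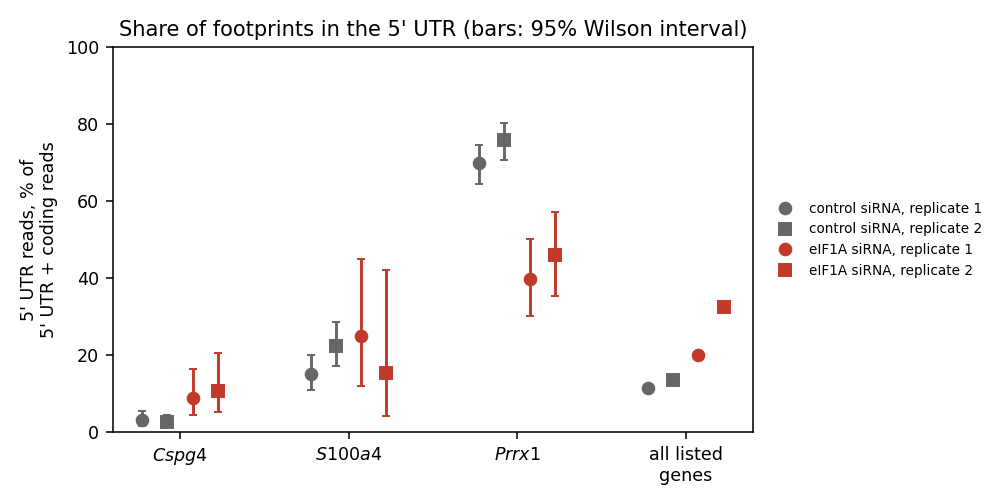
Share of 5' UTR reads among 5' UTR and coding reads, in percent, for Cspg4, S100a4, Prrx1 and all listed genes together, by library, with 95% Wilson intervals for the 3 genes. Prrx1 lies at 69.8% and 75.9% in the controls and at 39.8% and 46.2% in the knockdown libraries, while the share over all listed genes is higher in both knockdown libraries.

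**Figure D4:**
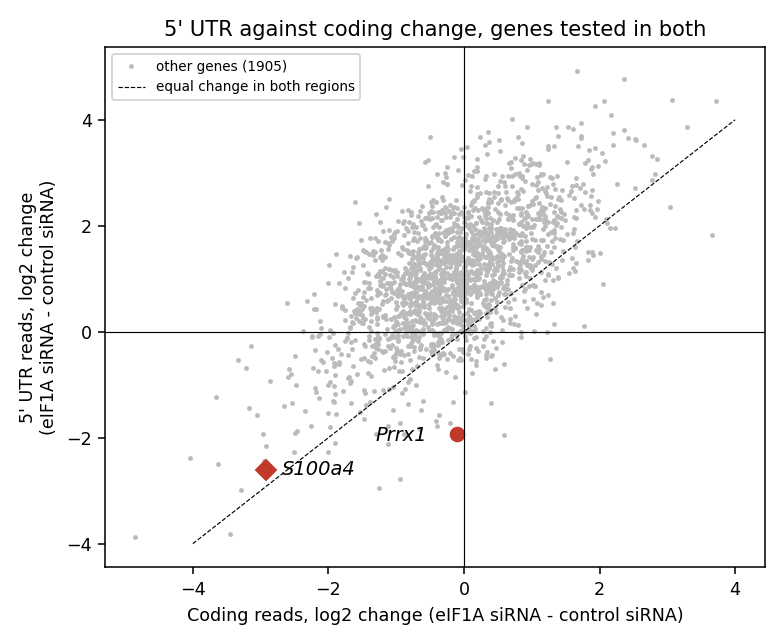
Log2 change in 5' UTR reads against log2 change in coding reads for the 1907 genes tested in both, with Prrx1 and S100a4 marked and a dashed line for equal change. S100a4 lies near the dashed line at -2.92 and -2.60, and Prrx1 lies at a coding change of -0.10 and a 5' UTR change of -1.92, below most genes.

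The other genes of the pathways around the 5 were described from 13 lists, without the 5 themselves. The lists were written with earlier results of these data known, so their counts are a description and no test of the pathways. Of 121 tested genes on these lists, by limma 45 fell in coding reads (37.2%), 4 rose (3.31%) and 72 were not called. By edgeR 41 of the 121 fell (33.9%) and 9 rose (7.44%), and by DESeq2 28 fell (23.1%) and 6 rose (4.96%). Over all genes limma called 18.7% lower and 10.6% higher, edgeR 17.8% and 19.6%, and DESeq2 10.8% and 10.5%. These shares are the background for the count of each list below, and counts of short lists can lie near them. The median log2 change of the 121 genes was -0.61, beside -0.16 for all genes. Of the genes named from these lists, Mib2, Numbl, Ly6a, Chst12, Src and Hmga2 in coding reads, and Tnc and Hes1 in leader reads, had a mean under 10 in 1 group and reached the filter through the group where they were high, so their calls are not independent of the filter. Of the 83 tested for leader reads, 25 rose (30.1%), 5 fell (6.02%) and 53 were not called, with a median of 0.78 beside 1.09 for all genes. Over all genes 44.0% of leaders rose and 2.81% fell. With control replicate 1 left out, 16 of the coding falls and none of the rises were called, and with control replicate 2 left out, 1 and none (4 and 3 rises at an unadjusted p under 0.05); over all genes limma then called 252 and 26 genes, out of 1276 and 949 at an unadjusted p under 0.05. The leader median of the lists turned to -0.26 with quantile normalization, which sets the leader distributions of the libraries equal.

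Among mural cell markers only Mcam, an adhesion molecule, was listed beside Cd248, Notch3 and Cspg4, of 27 genes on the list. It had 76.0 and 69.1 normalized coding reads in the controls and 70.2 and 31.9 in the knockdown libraries, and it was not called (log2 -0.60, limma adjusted p = 0.22). Pdgfrb and Rgs5 were not analysed here, so the pericyte identity of any cells could not be checked further.

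The Notch pathway gave 5 falls and no rise among 17 tested genes by limma, with a median log2 change of -0.38. At an unadjusted p under 0.05 the counts were 6 and 0, by edgeR 5 and 0, and by DESeq2 2 and 0. DESeq2 called 10.8% of all genes lower. Both other listed receptors fell: Notch1 by 1.89 on the log2 scale, from 231 ± 61.5 to 61.0 ± 12.98 normalized coding reads (n = 2, limma adjusted p = 0.00052), and Notch2 by 0.98 (adjusted p = 0.024). Notch2 lost its call in 5 of 15 alternatives. The ubiquitin ligase Mib2, which acts on ligands, fell by 1.68, and Numbl, a relative of the Notch inhibitor Numb, by 1.47. Hes1, a target of Notch signalling, had 4.30 and 4.32 normalized leader reads in the controls and 15.3 and 33.5 in the knockdown libraries, and too few coding reads to be tested. With either control left out, no leader of the list was called higher.

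Of 15 other mesenchymal transcription factors tested in coding reads, 6 fell and 2 rose, with a median log2 change of -0.41. Tead2 fell by 1.89 on the log2 scale, Nfix by 1.65 and Tcf4 by 1.48. Ets1 rose by 1.44. The other rise was that of Hmga2, a chromatin protein of embryonic cells, which had 5.02 and 0.86 normalized coding reads in the controls, the latter the value of 1 read, and 21.4 and 22.3 in the knockdown libraries. In leader reads 4 of 10 rose and 2 fell, where 44.0% of all genes rose and 2.81% fell. Lhx9 (-1.09) was among the falls and was lower in coding reads as well. None of the 10 had a ratio called lower by limma (0 at an unadjusted p under 0.05). Over all 1907 genes tested for the ratio 0.0524% were called lower, so a count of 0 lies near that share. The ratio of 1 of the 10, Nfix, was called higher, where 19.4% of all genes were. The log2 changes of the 10 ratios ran from -0.0019 to 2.79.

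Over all 1907 genes tested in both regions, 49 had a leader called lower. Of these, 32 were also called lower in coding reads and 17 were not called there. On the lists, the leaders called lower included those of Lhx9, Tgfb1, Tgfb3 and Tnc. None of the 77 list genes tested in both regions had a lower leader with coding reads that were not called. Beside 17 of 1907 over all genes, a count of 0 among 77 lies near the background. The lower leader calls on the lists ended with TMM scaling, edgeR and DESeq2, where no list gene's leader was lower even at an unadjusted p under 0.05.

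Of 17 fibroblast surface and matrix genes, limma called 7 lower and none higher, with a median log2 change of -0.79. The counts were 10 and 0 at an unadjusted p under 0.05, 7 and 1 by edgeR and 6 and 0 by DESeq2. Tnc fell by 2.66 on the log2 scale, from 471 ± 151 to 73.4 ± 20.4 normalized coding reads (n = 2, limma adjusted p = 5.22e-05). Ly6a, the stem cell antigen Sca-1, fell by 2.28, the gelatinase Mmp2 by 2.21 and the collagen chain Col5a1 by 2.11. The leader of Vim rose by 1.77 and that of Fn1 by 1.28, while their coding reads were not called. Leader rises were common, with a median log2 change of 1.09 over all genes and 44.0% called higher.

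Proteoglycan core proteins beside Cspg4 fell in 2 of 8 cases, where 18.7% of all genes fell. Vcan, the large matrix proteoglycan versican, fell by 1.23 on the log2 scale and Col18a1 by 1.11. Of 14 tested enzymes that build glycosaminoglycan chains, 5 fell and 1 rose. Chst12, a chondroitin sulfotransferase, fell by 2.49, Slc35b2, a carrier of the sulfate donor, by 1.52, and Xylt2, which starts the chain, by 1.48. Papss1 fell by 1.24 and Hs6st2 by 1.15, and B3gat3, which completes the linker, rose by 1.36. The partners of Cd248 in the matrix gave 2 falls among 4, the basement membrane chains Col4a1 (-1.395) and Col4a2 (-1.39).

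In the S100 family, S100a13 fell by 2.13 on the log2 scale, from 114 ± 5.98 to 27.0 ± 13.7 normalized coding reads (n = 2, limma adjusted p = 0.00064), and the other 2 tested, beside S100a4, were not called. The leader of S100a6 rose by 1.52 (limma adjusted p = 0.0013), where that of S100a4 was lower. A leader rise was shared by many genes, 44.0% of all tested. Of 7 annexins, which S100 proteins bind, 2 fell, where 18.7% of all genes fell. Anxa6 fell by 2.58 and Anxa5 by 0.91, and Anxa5 kept its call in 7 of 15 alternatives. Among 7 genes of non-muscle myosin II and other S100a4 partners, Trp53 rose by 0.92 and Myh10 fell by 0.83. Myh10 kept its call in 4 of 15 alternatives.

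Gene lists for signals known to act on pericytes and fibroblasts gave falls in coding reads and no rise by limma. Signalling itself was not measured. Of 18 genes on the list for PDGF signalling only 6 were tested, and 4 of these fell, Src (-1.72), Plat (-1.46), Gab1 (-1.29) and Grb2 (-1.08). At an unadjusted p under 0.05, 5 fell and 0 rose, by edgeR 4 and 0, and by DESeq2 1 and 0. In TGF-beta and BMP signalling 5 of 14 fell: Ltbp3, which binds latent TGF-beta, by 2.56, the procollagen protease Bmp1 by 1.81, the ligand Tgfb1 by 1.53, Ltbp4 by 1.51 and the repressor Ski by 1.14 (7 falls and 1 rise at an unadjusted p under 0.05, 5 and 2 by edgeR, 3 and 1 by DESeq2). Of 11 genes on the list for smooth muscle contraction 5 fell, Cnn3 (-1.28), Flna (-1.21), Ilk (-1.18), Cald1 (-1.02) and Vcl (-0.84). These genes are not particular to smooth muscle. The counts were 8 falls and 0 rises at an unadjusted p under 0.05, 4 and 0 by edgeR, and 3 and 0 by DESeq2. Vcl kept its call in 6 of 15 alternatives.

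Among markers of other cells, the neural list had 3 of 10 genes listed, of which Map2 fell by 2.49 on the log2 scale and Ncam1 by 1.17. Their summed level was 289 and 341 normalized coding reads in the controls and 150 and 128 in the knockdown libraries. Of the other lists, the bone marker Spp1 rose by 1.365, and the endothelial gene Flt1 and the epithelial gene Dsp were not called. The part of other cell types in the results was not tested.

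**Figure D5:**
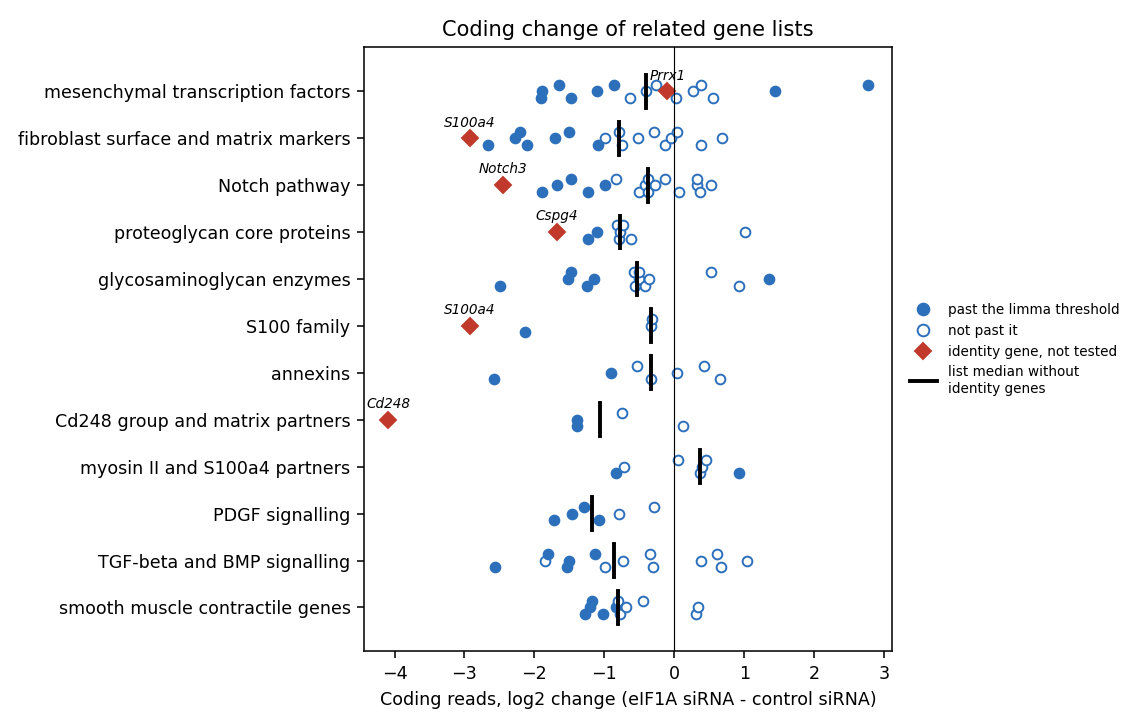
Log2 change in coding reads of the tested genes on 12 lists, as dots filled where limma called them, with the median of each list, leaving out the 5 identity genes, as a black line and red diamonds for the latter, which were not tested. S100a4 and Notch3 lie at -2.92 and -2.45, lower than the other genes on their lists, and Prrx1 lies at -0.10 among the transcription factors.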

How the data were processed

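The deposited signal, per the file headers, is a normalized read number per gene, for the 5' UTR and the coding sequence. Build mm10 and the tools DESeq2, HTSeq, TopHat2, Bowtie and cutadapt, without versions, are named per the submitters' processing notes. In each library 100% of values were whole multiples of 1 read, within 0.001 reads, so reads were recovered. A read was worth 0.717 and 0.864 in the controls (replicates 1 and 2) and 1.02 and 1.60 in the knockdown libraries. The lowest value of each column was 1 read; the treatment of genes with no reads is not stated.

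Log2 values with a pseudocount of 1 were fitted with limma 3.58.1 (R 4.3.3, mean-variance trend, Benjamini-Hochberg) over genes whose mean reached 10 normalized reads. Log2 changes of low genes are understated. On simulated reads with 200 changed genes, 96% of 4-fold changes and 31% of 2-fold changes were recovered for coding reads (4619 genes, 11 false calls), 95% and 43% for leaders (2101 genes), and 57% and 5% for the ratio (1907 genes). The simulation gave all genes the same spread beyond counting error, with balanced changes and independent libraries. In the data limma called 1352 genes for coding reads and the leader median was 1.09, so these rates need not hold for the real fits. Alternatives on recovered reads used edgeR 4.0.16, which called 1725 genes for coding reads, and DESeq2 1.42.0, with scaling factors from coding reads, as for TMM scaling. With 2 libraries against 2, an exact permutation test cannot give a p below 0.333.

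The 5 genes and the lists were chosen with earlier results of these data known. From each list the text names every called gene where 6 or fewer were called, otherwise the 4 largest falls and 3 largest rises; where none was called, up to 2 with the highest mean. Genes named for leader reads, and the genes near Prrx1 in the ratio, were chosen after their values were seen. Coding lengths were not used, so levels were not compared between genes. Of the symbols, 4668 matched RefSeq directly and 204 by an older name.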

Additional observations from a re-analysis of the deposited data

How the results depend on the processing

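The lower coding reads of Cd248, Notch3, Cspg4 and S100a4, and the lower leader reads and ratio of Prrx1, kept their direction in all 9 alternatives run on values, with coding log2 changes of -4.80 to -3.38 for Cd248, -2.79 to -2.10 for Notch3, -2.03 to -1.33 for Cspg4 and -3.01 to -2.68 for S100a4. Beyond the spread between libraries, S100a4 coding moved to -2.76 with TMM scaling, -2.72 with quantile normalization, -2.68 with a pseudocount of 5 and -3.01 with 1 read less per value, and its leader to -1.96 with a pseudocount of 5. Prrx1 coding moved to 0.065 with TMM scaling and 0.064 with quantile normalization. Quantile normalization, which sets the leader distributions equal, also moved leader changes to -0.80 for Cspg4, -3.52 for S100a4 and -2.87 for Prrx1, and ratios to 0.64, -0.80 and -2.93. Coding calls of 488 higher and 864 lower became 789 higher with TMM scaling, 905 with edgeR and 746 with the replicate block, 497 lower with DESeq2, and 241 and 547 at a mean of at least 50. Leader calls of 924 higher and 59 lower became 21 lower with TMM scaling, 452 and 375 with quantile normalization, 219 and 13 at a mean of at least 50, and 21 and 20 lower with edgeR and DESeq2. Ratio calls of 370 higher and 1 lower became 0 higher with quantile normalization, 617 and 12 with no filter, 110 higher at a mean of at least 50, 841 and 10 with the replicate block, and 3 lower with 1 read less per value. With 1 library left out, where a lone library is assumed to vary like the other group, coding calls ranged from 12 to 872 higher and 14 to 1185 lower, leader calls from 175 to 1292 and from 4 to 99, and ratio calls from 0 to 1176 and from 0 to 17. The cause of these moves was not tested. Of the counts of called genes on each list under each alternative, 559 stayed within 1.5 times and 187 did not. Same-numbered replicates deviated together in coding reads (r = 0.26 across genes) and not in leader reads (r = -0.06), and the labels do not say what a number shares. All 47 named genes that were called kept their call with the replicate block, but fewer did in other settings. The call was kept by 44 with edgeR, 43 with TMM scaling, 42 with quantile normalization, 39 without the mean-variance trend and 33 with DESeq2. With either control left out, which leaves 1 control library, most lost it. With 2 and 10 coding reads in the knockdown libraries, depth limits Cd248 most among the coding values of the 5 genes, and their leaders, with 1 to 8 reads per knockdown library outside Prrx1, are limited further.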
